A study of Oreochromis niloticus with 9 samples.

Results

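The loci described here encode the antioxidant and glutathione enzymes of the liver of Nile tilapia, together with the proteins that switch their genes on and off. They were chosen by name, as every locus whose symbol matches 1 of 22 names or name beginnings of these enzymes. The rule leaves out gstz1. It uses no measured value, but it was set with earlier results of these data known. The table held 69 such loci among its 37283, with 62 distinct symbols. A name for glutathione synthetase (gss) matched no locus. By role there were 5 regulators, 20 enzymes of superoxide and peroxide removal and 14 loci grouped as the thioredoxin system. There were also 3 enzymes of glutathione synthesis and recycling, 14 glutathione transferases, 8 enzymes of haem and quinone breakdown and 5 methionine sulfoxide reductases. Roles follow the beginning of the symbol, so the thioredoxin system here holds every txn symbol, txnl4a and txnl4b included, whatever the protein does.

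The fish were juvenile Nile tilapia (Oreochromis niloticus) of the farmed GIFT strain, whose sex the labels do not give. They received a basal diet without apple peel extracted powder (C, 0%), or with 0.2% (APE_A) or 0.8% (APE_H), for 8 weeks. Liver poly(A) RNA was sequenced in 3 libraries per diet, and by the methods of the study each library pooled the RNA of fish of 1 tank, so a library is a tank and variation between single fish cannot be seen. All groups shared the same stock, tank system and feeding schedule, and both comparisons with C use the same C libraries. The question was whether the diets with apple peel powder altered these genes.

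In vertebrates the transcription factor Nrf2 (gene nfe2l2) is held back by Keap1, which marks it for destruction until oxidants or reactive plant compounds modify Keap1. Freed Nrf2 enters the nucleus and turns on a set of genes known from mammals and zebrafish, among them haem oxygenase 1, NAD(P)H quinone dehydrogenase, glutamate-cysteine ligase, thioredoxin reductase and sulfiredoxin. The enzymes themselves work in relays. Superoxide dismutases turn superoxide into hydrogen peroxide, and catalase, glutathione peroxidases and peroxiredoxins remove the peroxide. Glutathione reductase and thioredoxin reductase restore the electron donors, and glutathione transferases join glutathione to reactive compounds. The liver is rich in these enzymes because it handles most dietary chemicals.

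Values are FPKM, fragment numbers scaled by transcript length and by the size of the library, so levels can be compared between loci. The table does not give the number of fragments behind a value. Differences are given as log2 differences, the difference between group means of log2(FPKM + 1), from a limma fit to all 9 libraries, and p-values were adjusted over the 20575 genes with at least 1 FPKM in at least 3 libraries. A log2 difference on this scale understates the change of low genes. Of the 69 loci, 63 passed this filter. The other 6 were msrb1b and gpx2, which were listed at 0 in every library, and gpx7, txndc16, 1 of the nqo1 loci (XLOC_006538) and 1 of the prdx6 loci (XLOC_022698), which did not exceed 0.76 FPKM in any library.

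One library stood apart. In APE_H3 the summed FPKM of 31 hepatocyte marker loci (25 of 39 listed symbols were found) was 7647, against 97091 to 156604 in C, 132687 to 216722 in APE_A and 91797 to 202200 in the other APE_H libraries. None of these loci was at 0 in all libraries, and 30 of the 31 were lower in APE_H3 than the median of the other libraries. The apoa1a locus had 30624 FPKM in APE_A1, 43942 in APE_A3 and 1895 in APE_H3. It was listed at 0 in the remaining libraries, so it raised the top of the APE_A range. Summed erythroid markers were 3341 FPKM in APE_H3 and 409 to 1578 in the others (11 of 12 loci above the median), connective tissue markers 701 against 28.4 to 68.7 (7 of 10), thrombocyte markers 224 against 12.95 to 35.75 (4 of 5) and lymphoid markers 94.97 against 20.95 to 56.88 (12 of 12). The erythroid sum of 1578 FPKM, in APE_A2, was mostly 1 locus, tfr1a (XLOC_022637). It had 1234 FPKM there and 538 in APE_H3. Myeloid markers summed to 384 FPKM against 3241 to 7835, although 10 of 14 loci were above the median. In the other libraries most of the myeloid sum came from the lyz loci, at 2303 to 6385 and 677 to 2499 FPKM. These had 112 and 40.2 FPKM in APE_H3. Exocrine pancreas markers summed to 596 FPKM in APE_H3 against 2779 to 31260 (9 of 9 below). Kidney tubule markers, 18.1 FPKM in APE_H3, lay within the 10.9 to 25.5 of the others. Most of this sum was 1 locus that carries the symbols herpud1 and slc12a3 (17.2 FPKM in APE_H3), so it is a poor measure of kidney tubule. In pooled tissue RNA, fewer cells of a type and less RNA per cell cannot be told apart. The part of these markers in the results below was not tested, and the APE_H differences of the 63 loci are given with and without APE_H3 where leaving it out moved a printed value by over 1.5 times.

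No locus of the 63 was differentially expressed between any of the diets, that is, none had an adjusted p under 0.05 (limma, Benjamini-Hochberg). Among all genes tested 0.0972% were called in APE_A vs. C, 0.122% in APE_H vs. C and 0.136% in APE_H vs. APE_A, with an additional requirement of at least a 2-fold change. The absence of calls among 63 loci is thus close to the background share. The lowest adjusted p among the loci was 1 in APE_A vs. C, 0.598 in APE_H vs. C and 0.423 in APE_H vs. APE_A. A moderated F test over the diets together called 0.185% of all genes and none of these loci. Without APE_H3 none of the loci was called either, against 0.0875%, 0.267% and 0.287% of all genes in the same order of comparisons and 0.335% by the F test.

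At an unadjusted p under 0.05, no locus passed in APE_A vs. C in either direction, where 1.48% of all genes passed as higher and 1.92% as lower. In APE_H vs. C, txnipa passed as higher (background 3.18%), and gstt1a and a gstr locus (XLOC_016377) as lower (background 4.4%). In APE_H vs. APE_A, blvra and txnipa passed as higher (5.71%) and gstt1a, txnl1 and txndc11 as lower (5.17%). The unadjusted F test passed gstt1a only, against 7.73% of all genes. These shares were at or below those of the whole liver transcriptome. The libraries of both diets did not overlap at 4 loci as higher (background 4.69%) and 3 as lower (6.34%) in APE_A vs. C, at 3 (5.91%) and 6 (7.02%) in APE_H vs. C, and at 3 (7.45%) and 2 (7.06%) in APE_H vs. APE_A. Leaving out a library changed them. Without APE_H3, no locus passed in APE_H vs. C (3.75% of all genes higher, 3.87% lower), keap1b and blvra passed as higher in APE_H vs. APE_A (5.53%) and none as lower (4.27%). In APE_A vs. C, hmox2a then passed as higher (2.13%) and blvra and the same gstr locus as lower (3.12%). Their APE_A vs. C differences are the same in both fits, and the estimated spread is smaller without APE_H3. Without APE_H1, which leaves APE_H3 with more weight, 14 loci were lower in APE_H than in C against 10.4% of all genes, and 14 were lower than in APE_A against 11.2%.

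The median log2 difference over the 63 loci was -0.0047 in APE_A vs. C, with 29 loci higher and 34 lower, beside -0.05 over all genes. In APE_H vs. C it was -0.30, with 26 higher and 37 lower, beside -0.03 over all genes. Without APE_H3 that median was 0.01, with 32 loci higher and 31 lower. In APE_H vs. APE_A it was -0.18, and 0.03 without APE_H3. Without APE_H1 these medians were -0.42 in APE_H vs. C and -0.37 in APE_H vs. APE_A. The median of APE_H thus depended on which of its libraries was left out. Taken library by library against the mean of C, the median over the loci was -0.03 to 0.09 in C, -0.10 to 0.03 in APE_A, and 0.19, -0.25 and -0.59 in APE_H1, APE_H2 and APE_H3.

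**Figure D1:**
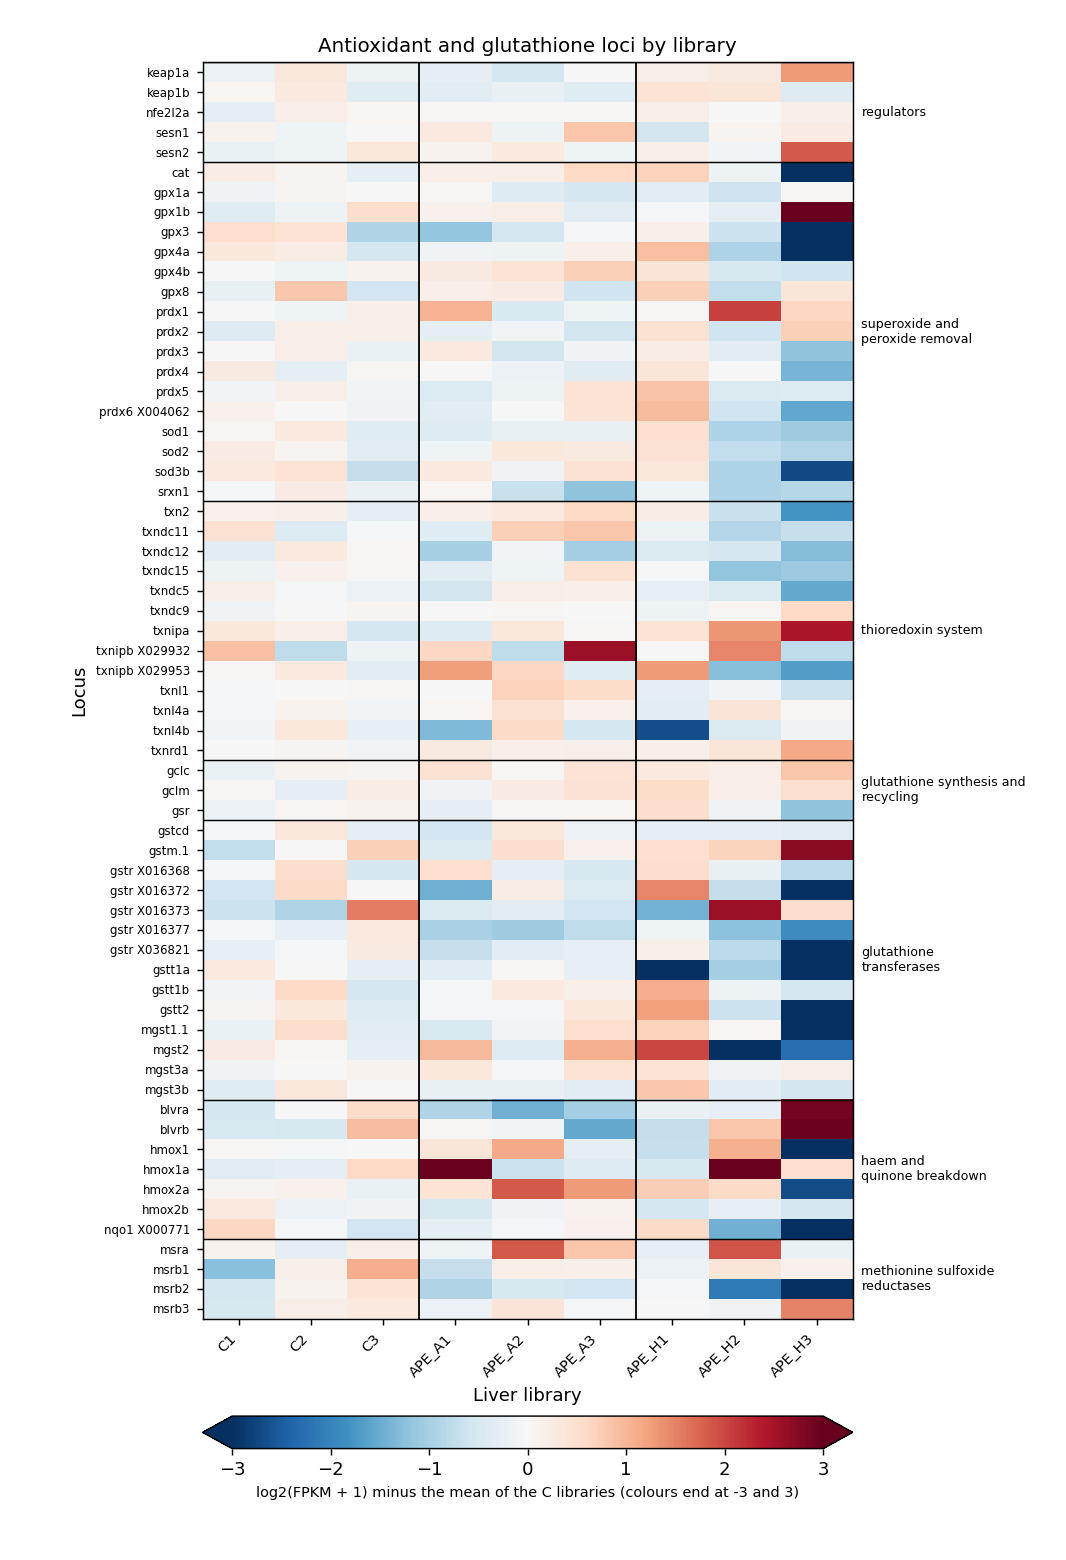
Heat map of the 63 tested loci (rows, grouped by role) in the 9 liver libraries (columns). Colours give log2(FPKM + 1) minus the mean of the C libraries, and they end at -3 and 3. Most strong colours are in the APE_H3 column, where 29 loci were below and 12 above all other libraries.

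The Nrf2 gene was the steadiest of the tested loci. It (nfe2l2a) had 27.9, 39.0 and 35.4 FPKM in the C libraries, 34.6, 34.6 and 34.9 in APE_A, and 38.1, 34.3 and 37.9 in APE_H. The groups overlapped, and APE_H3 lay within the range of the other libraries. Its coefficient of variation over the 9 libraries was 9.25%, and its highest value was 1.40 times its lowest. The log2 difference was 0.04 (SE 0.31, 95% interval -0.68 to 0.75) in APE_A vs. C and 0.12 (95% interval -0.60 to 0.83) in APE_H vs. C. Nrf2 is controlled mainly through the stability of its protein, which RNA does not measure. Both differences changed sign, to -0.096 and -0.017, without C1.

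Of the genes for the Nrf2 inhibitor Keap1, of which fish carry a pair, keap1a had 11.4, 16.8 and 11.6 FPKM in C, 10.7, 8.77 and 13.2 in APE_A, and 15.2, 15.9 and 33.1 in APE_H. Each APE_H library was above every APE_A library, a separation found in this direction in 7.45% of all genes, while C overlapped both. The log2 difference of APE_H vs. APE_A was 0.84 (SE 0.39, adjusted p = 0.468) and 0.50 without APE_H3. The second gene, keap1b, had 34.81, 40.95 and 25.42 FPKM in C, 25.9, 28.4 and 25.6 in APE_A, and 44.6, 43.2 and 24.9 in APE_H. Here APE_H3 was the lowest library and the other APE_H libraries were the highest. The APE_H vs. APE_A difference was 0.44 (SE 0.37, adjusted p = 0.624), and without APE_H3 it was 0.70.

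The sestrins restrain growth signalling under stress and help to restore peroxiredoxins. The sesn1 values ran from 6.81 to 19.3 FPKM over the 9 libraries, with APE_A3 highest. For sesn2 the values were 0.77 to 1.54 FPKM in 8 libraries and 6.22 in APE_H3. The APE_H vs. C difference of sesn2 was 0.65 (SE 0.49) with APE_H3 and 0.05 without it.

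Of the classical targets of Nrf2, each tested on its own, none passed the adjusted test. The haem oxygenase gene hmox1a, whose product opens the haem ring, had 0.92, 1.04 and 2.71 FPKM in C, 20.9, 0.57 and 0.86 in APE_A, and 0.76, 21.4 and 2.46 in APE_H. It was thus low in 7 libraries and about 20 FPKM in APE_A1 and APE_H2, 1 library of each supplemented group. The log2 difference was 0.71 (SE 1.22, adjusted p = 1) in APE_A vs. C and 1.08 (SE 1.22, adjusted p = 0.773) in APE_H vs. C. Without APE_A1 the first was -0.51, and without APE_H2 the second was 0.02. The only other tested locus with APE_A1 and APE_H2 as its highest libraries was prdx1, a cytosolic peroxiredoxin that Nrf2 controls in mammals. It had 8.80, 7.97 and 9.87 FPKM in C, 19.2, 6.15 and 7.99 in APE_A, and 9.17, 39.6 and 14.1 in APE_H. These 2 loci are 3.17% of the 63, and 2.43% of all genes had these libraries as their highest pair. The lower of the pair was also at least 2-fold above the next library for hmox1a but not for prdx1. Such loci were 1.59% of the 63, that is 1 locus, and 0.321% of all genes. The pair of libraries and the 2-fold rule were taken from hmox1a after its values were seen. It meets them by construction, so these shares are no test. For prdx1 in APE_H vs. C the log2 difference was 0.90 (SE 0.59, adjusted p = 0.696), and 0.33 without APE_H2.

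Glutamate-cysteine ligase, the rate-limiting enzyme of glutathione synthesis, consists of a catalytic subunit (gclc) and a modifier subunit (gclm), and both were expressed at low levels. The gclc values were 2.45, 3.24 and 3.16 FPKM in C, 4.39, 3.05 and 4.26 in APE_A, and 3.78, 3.49 and 5.99 in APE_H. Each APE_H library was above all C libraries, which held as higher for 5.91% of all genes, and APE_A overlapped C. The log2 difference was 0.31 (SE 0.26) in APE_A vs. C and 0.43 (SE 0.26, adjusted p = 0.688) in APE_H vs. C, or 0.24 without APE_H3. For gclm the values were 2.31, 1.63 and 2.75 FPKM in C, 1.99, 2.80 and 3.32 in APE_A, and 3.67, 2.65 and 3.46 in APE_H. The groups overlapped, with an APE_H vs. C difference of 0.41 (SE 0.25, adjusted p = 0.688). Glutathione reductase (gsr), which regenerates glutathione from its oxidized form, had 7.14, 8.55 and 8.79 FPKM in C, 6.53, 8.37 and 8.58 in APE_A, and 12.2, 7.55 and 2.97 in APE_H. Its APE_H libraries held both the highest and the lowest value, and the difference from C, -0.26 (SE 0.43), became 0.22 without APE_H3.

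Thioredoxin reductase (txnrd1) was the only tested locus at which all 6 libraries of the supplemented diets were above all C libraries. It had 5.62, 5.92 and 5.21 FPKM in C, 6.90, 6.29 and 6.37 in APE_A, and 6.30, 7.43 and 13.4 in APE_H. This order was found at 1.59% of the 63 loci, that is at this 1, and at 0.748% of all genes. The log2 difference was 0.19 (SE 0.30, adjusted p = 1) in APE_A vs. C and 0.55 (SE 0.30, adjusted p = 0.669) in APE_H vs. C. Without APE_H3 the latter was 0.25. No locus had all 6 libraries below C, an order held by 1.16% of all genes.

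Sulfiredoxin (srxn1), which repairs over-oxidized peroxiredoxins, had 4.97, 6.19 and 4.27 FPKM in C, 5.31, 2.81 and 1.62 in APE_A, and 4.57, 2.22 and 2.39 in APE_H. One library of each supplemented group lay within the range of C and the others were below it. The log2 differences from C were -0.61 (SE 0.38, adjusted p = 1) in APE_A, or -0.31 without APE_A3, and -0.63 (SE 0.38, adjusted p = 0.688) in APE_H. The expressed locus of nqo1 (XLOC_000771), a quinone reductase, had 154, 96.2 and 66.2 FPKM in C, 81.9, 95.7 and 109 in APE_A, and 149, 36.2 and 3.20 in APE_H. The groups overlapped, and the APE_H vs. C difference of -1.81 (SE 1.15, adjusted p = 0.693) was -0.43 without APE_H3.

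**Figure D2:**
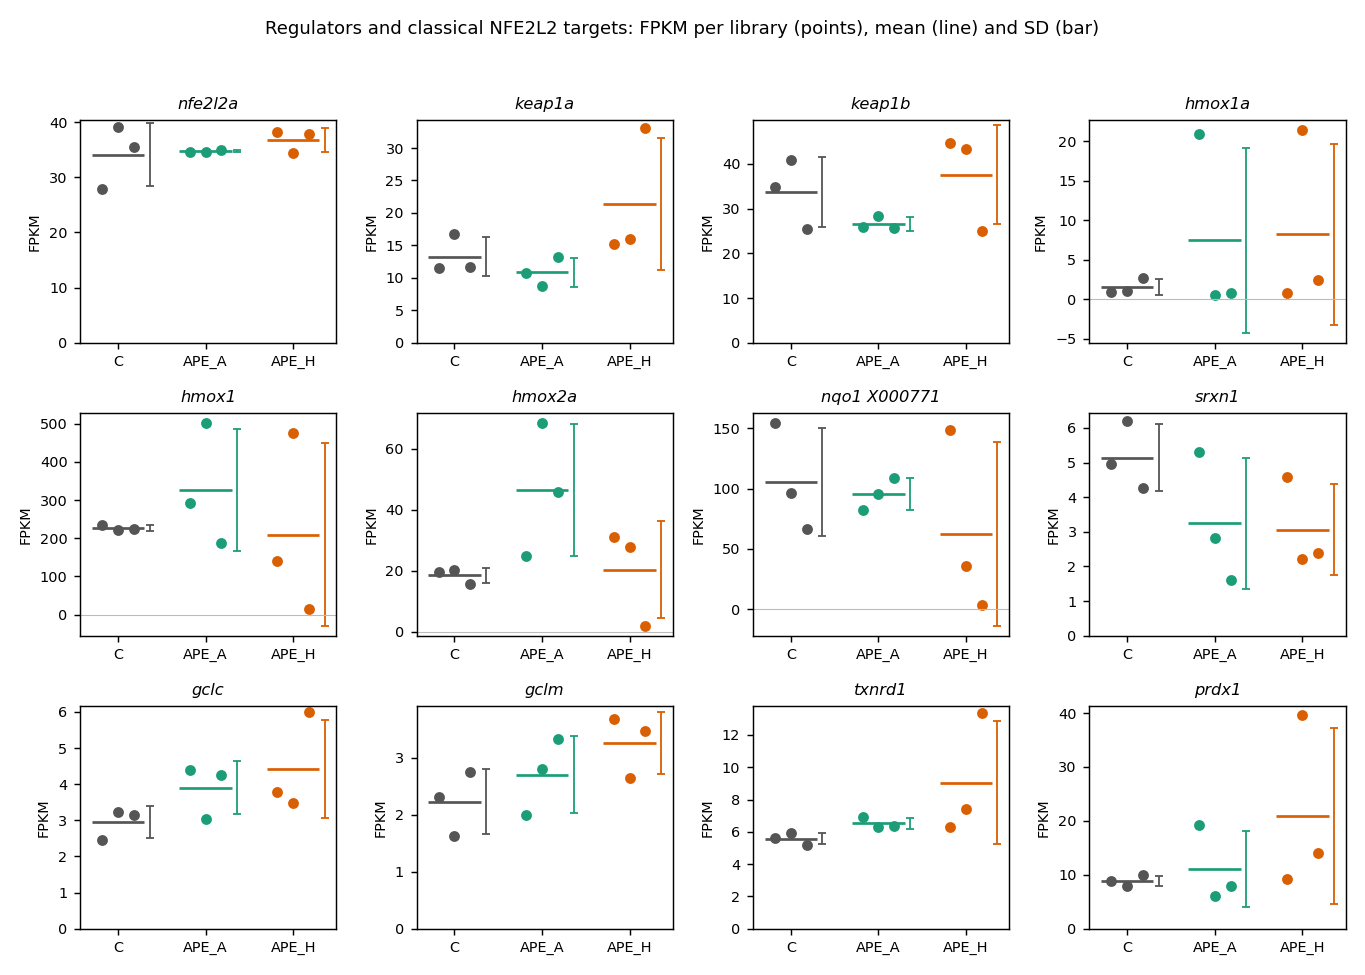
FPKM of regulators and targets of Nrf2 in each library (points), with the group mean (line) and SD (bar, n = 3), for C, APE_A and APE_H. The nfe2l2a points lie between 27.9 and 39.0 FPKM, hmox1a has 1 high library in each of APE_A and APE_H, and each APE point of txnrd1 is above the C points.

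The enzymes that remove superoxide and peroxide included the most abundant transcripts of the set. Catalase (cat), the peroxisomal enzyme that splits hydrogen peroxide, had 1094, 999.9 and 764 FPKM in C, 1088, 1061 and 1435 in APE_A, and 1511, 846 and 88.0 in APE_H. The highest and the lowest libraries were both APE_H. The log2 difference was 0.33 (SE 0.98) in APE_A vs. C and -0.96 (SE 0.98, adjusted p = 0.753) in APE_H vs. C, and the latter was 0.26 without APE_H3.

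The highest locus of all was gpx4a, a glutathione peroxidase that reduces lipid peroxides in membranes. It had 1830, 1713 and 1021 FPKM in C, 1380, 1330 and 1643 in APE_A, and 2738, 771 and 89.5 in APE_H. The groups overlapped, and the APE_H vs. C difference was -1.36 (SE 1.11) with APE_H3 and -0.02 without it. Its paralog gpx4b had 86.0, 78.1 and 91.3 FPKM in C, 103, 114 and 140 in APE_A, and 112, 60.3 and 56.2 in APE_H. All APE_A libraries were above those of C, as at 4.69% of all genes, with a difference of 0.47 (SE 0.41, adjusted p = 1). The pattern of gpx1b, a peroxidase for soluble peroxides, was different. It had 186, 214 and 344 FPKM in C, 262, 272 and 191 in APE_A, and 235, 196 and 2276 in APE_H. APE_H3 alone was far above the rest, and the difference from C of 0.98 (SE 0.92, adjusted p = 0.743) was -0.16 without it.

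The superoxide dismutases did not separate by diet. Cytosolic sod1 had 227, 268 and 168 FPKM in C, 167, 185 and 185 in APE_A, and 306, 113 and 103 in APE_H, and its APE_H vs. C difference was -0.50 (SE 0.52) with APE_H3 and -0.22 without it. Mitochondrial sod2 had 28.21, 24.97 and 18.83 FPKM in C, 21.6, 29.6 and 28.7 in APE_A, and 32.3, 13.9 and 12.4 in APE_H, with a difference of -0.39 (SE 0.43), or -0.15 without APE_H3. Extracellular sod3b had 36.6, 40.0 and 17.9 FPKM in C, 36.9, 27.6 and 40.5 in APE_A, and 37.7, 15.2 and 3.73 in APE_H. In each of the 3 genes APE_H1 was within or above the range of C, and APE_H2 and APE_H3 were below it. The sod3b difference of -1.10 (SE 0.74) was -0.29 without APE_H3. Over the 17 tested loci of this role, 6 were higher and 11 lower in APE_A than in C. In APE_H 5 were higher and 12 lower than in C, with or without APE_H3. Of all genes, 9233 were higher and 11311 lower in APE_A vs. C, and 9935 and 10631 in APE_H vs. C. None of the 17 passed an unadjusted p of 0.05 (limma). Of all genes, 1.48% passed as higher and 1.92% as lower in APE_A vs. C, and 3.18% and 4.4% in APE_H vs. C. At such shares, few or none of 17 loci would pass.

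In the thioredoxin system the locus with the largest APE_H difference was txnipa. Its protein, the thioredoxin-interacting protein, binds and inhibits thioredoxin and, in mammals, is induced by glucose and limits glucose uptake. It had 158, 146 and 88.6 FPKM in C, 96.9, 162 and 130 in APE_A, and 170, 320 and 703 in APE_H. Every APE_H library was above every library of the other diets. The log2 difference of APE_H vs. C was 1.40 (SE 0.60), with an unadjusted p of 0.048 and an adjusted p of 0.654, and the difference from APE_A was also 1.40 (adjusted p = 0.456). Without APE_H3 they were both 0.87. Groups ordered in this way, higher in APE_H than in C, were found at 5.91% of all genes with APE_H3 and at 10.6% without it. Against APE_A the share was 7.45% with APE_H3.

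Among the thioredoxin-like proteins, txnl1, a cytosolic protein associated with the proteasome in mammals, had 9.03, 9.21 and 9.48 FPKM in C, 9.13, 15.6 and 13.9 in APE_A, and 7.53, 8.66 and 5.60 in APE_H. The C libraries were close together, and all APE_H libraries were below those of both other groups, as at 7.02% of all genes against C and 7.06% against APE_A. The APE_H vs. APE_A difference was -0.73 (SE 0.30, adjusted p = 0.437). A protein of the endoplasmic reticulum, txndc11, had 5.40, 2.51 and 3.62 FPKM in C, 2.65, 6.71 and 7.30 in APE_A, and 3.20, 1.55 and 1.93 in APE_H, and here APE_H1 overlapped APE_A. Its APE_H vs. APE_A difference was -0.97 (SE 0.40, adjusted p = 0.453). Another, txndc12, had 7.37, 11.6 and 9.52 FPKM in C, 4.23, 8.79 and 4.07 in APE_A, and 6.67, 6.32 and 3.20 in APE_H. Its APE_H libraries were below C, as at 7.02% of all genes, with differences from C of -0.70 (SE 0.38) for APE_A and -0.74 (SE 0.38, adjusted p = 0.667) for APE_H, the latter -0.47 without APE_H3.

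Mitochondrial thioredoxin (txn2) had 33.2, 33.9 and 25.1 FPKM in C, 35.4, 37.6 and 46.3 in APE_A, and 35.85, 18.96 and 8.04 in APE_H. All APE_A libraries were above C, as at 4.69% of all genes, with a difference of 0.36 (SE 0.52, adjusted p = 1). Both txnipb loci have the same coordinates in the table, with different values in each library, and how reads were divided between them is not given in the sources used here. Over the 13 tested loci of the thioredoxin system, 8 were higher and 5 lower in APE_A than in C, and 5 were higher and 8 lower in APE_H.

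The glutathione transferases held the largest difference of the set, in a theta class gene. For gstt1a the values were 1483, 1193 and 995 FPKM in C, 951, 1265 and 1020 in APE_A, and 0, 595 and 42.6 in APE_H. All APE_H libraries were below those of both other diets, as at 7.02% of all genes against C and 7.06% against APE_A. APE_H1 was listed at 0, with a median of 1007 FPKM over the remaining libraries. Whether this 0 is a failed estimate was not tested. The log2 difference was -5.35 (SE 1.96) in APE_H vs. C, with an unadjusted p of 0.027 and an adjusted p of 0.598, and -5.18 in APE_H vs. APE_A (adjusted p = 0.423). With the 0 treated as missing, these were -2.90 (adjusted p = 0.593) and -2.73 (adjusted p = 0.427). Leaving out 1 library at a time gave -7.51 to -2.90 in APE_H vs. C, the extremes without APE_H2 and without APE_H1. The related gstt1b had 110 to 339 FPKM over the 9 libraries, with APE_H1 highest and APE_H3 lowest, and did not repeat the separation.

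The rho class genes (gstr) occur in fish and not in mammals. Of 5 gstr loci, 4 lie together on scaffold GL831202.1 between positions 3037916 and 3084520 of the deposited assembly, so reads of near-identical copies may have been split among them. The last of these (XLOC_016377, 3082632 to 3084520) had 4.33, 3.70 and 5.84 FPKM in C, 1.81, 1.66 and 2.25 in APE_A, and 4.04, 1.36 and 0.51 in APE_H. All APE_A libraries were below C, as at 6.34% of all genes, and in APE_H 2 of 3 were. The log2 difference was -0.94 (SE 0.42, adjusted p = 1) in APE_A vs. C and -1.08 (SE 0.42, unadjusted p = 0.035, adjusted p = 0.630) in APE_H vs. C, or -0.69 without APE_H3. Its neighbours had other orders. XLOC_016373 was highest in APE_H2, at 43.5 FPKM, and XLOC_016372 in APE_H1, at 175 FPKM.

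The mu class gene gstm.1 had 2.29, 4.52 and 8.03 FPKM in C, 3.04, 6.91 and 4.94 in APE_A, and 6.78, 7.63 and 34.7 in APE_H. APE_H3 was the highest library and the remaining APE_H libraries lay within C. Its APE_H vs. C difference was 1.29 (SE 0.66, adjusted p = 0.667) and 0.58 without APE_H3. Among the microsomal transferases, mgst3a had 29.9 to 43.5 FPKM, the second steadiest locus with a coefficient of variation of 15.2%. The mgst2 locus was listed at 0 in APE_H2, with a median of 15.8 FPKM over the remaining libraries. Over the 14 transferases, 4 were higher and 10 lower in APE_H than in C with APE_H3, and 9 were higher and 5 lower without it.

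**Figure D3:**
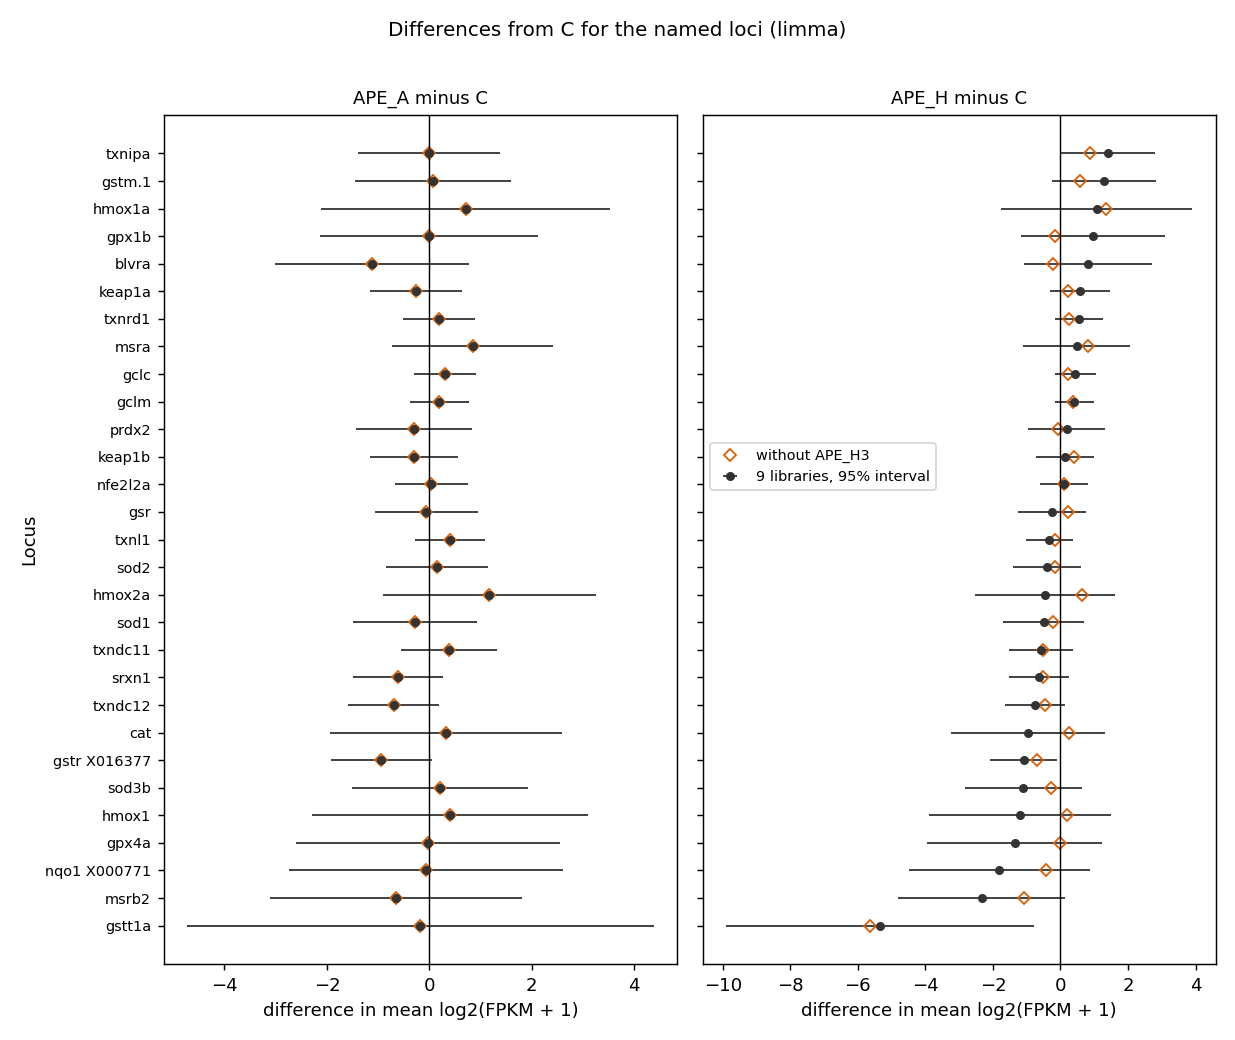
Log2 differences from C, on the log2(FPKM + 1) scale, for 29 named loci in APE_A (left) and APE_H (right). Filled points are from all 9 libraries with the 95% interval of limma, and open diamonds are from the fit without APE_H3. In APE_A the intervals all include 0, in APE_H those of gstt1a, gstr XLOC_016377 and txnipa exclude it before adjustment, and cat, hmox1, gsr, hmox2a, gpx1b, blvra and prdx2 change sign without APE_H3.

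Haem breakdown begins with haem oxygenase, which makes biliverdin, and goes on with biliverdin reductases, which make the antioxidant bilirubin. Besides hmox1a the table held a further hmox1 locus of far higher level. It had 234, 221 and 225 FPKM in C, 292, 502 and 186 in APE_A, and 140, 475 and 13.2 in APE_H. The C libraries were nearly equal, and both supplemented groups reached above and below them. The APE_H vs. C difference of -1.21 (SE 1.16) was 0.19 without APE_H3. The hmox2a gene, for a constitutive form of the enzyme, had 19.7, 20.1 and 15.8 FPKM in C, 24.96, 68.34 and 45.83 in APE_A, and 31.2, 27.8 and 2.04 in APE_H. All APE_A libraries were above C, as at 4.69% of all genes. The APE_H libraries other than APE_H3 were also above C, as at 10.6%. The log2 difference was 1.17 (SE 0.89, adjusted p = 1) in APE_A vs. C, with an unadjusted p of 0.227 (limma). Without APE_H3 this difference was the same and its SE was 0.39, with an unadjusted p of 0.021 and an adjusted p of 0.905. In APE_H vs. C the difference was -0.46 with APE_H3 and 0.65 without it.

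Biliverdin reductase A (blvra) had 7.45, 11.1 and 16.9 FPKM in C, 5.52, 3.53 and 5.02 in APE_A, and 9.71, 9.26 and 88.3 in APE_H. All APE_A libraries were below those of C, as at 6.34% of all genes. They were also below those of APE_H, as at 7.45%, and APE_H3 was far above the rest. The difference of APE_A vs. C was -1.12 (SE 0.82, adjusted p = 1), with an unadjusted p of 0.207 (limma). Without APE_H3 it was the same with an SE of 0.32, an unadjusted p of 0.011 and an adjusted p of 0.808. APE_H vs. APE_A was 1.93 (SE 0.82, unadjusted p = 0.047, adjusted p = 0.456), and 0.90 (unadjusted p = 0.043) without APE_H3. Without APE_H3 blvra was the only one of the 63 loci with an unadjusted F test p under 0.05, against 8.29% of all genes.

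Biliverdin reductase B (blvrb) is known in humans as the flavin reductase of red blood cells. It had 41.0, 40.6 and 109 FPKM in C, 57.9, 53.4 and 18.9 in APE_A, and 34.4, 102 and 445 in APE_H. The highest libraries were APE_H3, C3 and APE_H2, 1 of them a control. The gene for the red cell anion exchanger, slc4a1a, had 43.4, 75.7 and 176 FPKM in C, 83.4, 81.3 and 16.4 in APE_A, and 41.9, 162 and 942 in APE_H. Ranked by either gene, 7 of the 9 libraries had the same place, and C1 and C2 exchanged neighbouring places. This pair was picked after the values were seen, and the part of blood RNA in blvrb was not tested. Slc4a1a is 1 of 12 erythroid marker loci, and they did not all have this order. Gata1a and klf1 also had APE_H3, C3 and APE_H2 highest. In contrast, alas2 had more in APE_A2 (147 FPKM) than in C3 (146) or APE_H2 (122). The tfr1a locus XLOC_022637 was highest in APE_A2, at 1234 FPKM. The orders of the remaining erythroid loci were not counted. The APE_H vs. C difference of blvrb was 1.03 (SE 0.96) with APE_H3 and 0.06 without it.

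The methionine sulfoxide reductases repair oxidized methionine in proteins. The mitochondrial msrb2 had 62.5, 97.5 and 120 FPKM in C, 47.8, 64.2 and 60.8 in APE_A, and 87.5, 19.8 and 2.22 in APE_H. APE_A2 and APE_H1 lay within the range of C and the other supplemented libraries below it. The APE_H vs. C difference was -2.33 (SE 1.06, adjusted p = 0.667), or -1.09 without APE_H3. For msra the values were 1.70, 1.06 and 1.84 FPKM in C, 1.3, 7.94 and 3.46 in APE_A, and 1.11, 8.25 and 1.19 in APE_H. The groups overlapped, with an APE_A vs. C difference of 0.85 (SE 0.68, adjusted p = 1), which was 0.35 without APE_A2 and 1.33 without APE_A1. Of the other 2 tested loci, msrb3 reached 63.4 FPKM in APE_H3 and was 15.5 to 29.1 elsewhere.

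Across the set, APE_H3 was below all other libraries at 29 of the 63 loci (46%), against 25.7% of all genes, and above all of them at 12 (19%), against 26.3%. The median log2 difference of APE_H3 from the median of the other libraries was -0.59, beside -0.007 over all genes. By role it was -1.04 for the transferases, with 11 of 14 below the median, -0.84 for superoxide and peroxide removal, with 12 of 17 below, and -0.62 for the thioredoxin system, with 9 of 13 below. It was 0.20 for the regulators and 0.27 for glutathione synthesis and recycling, in each of which 1 locus lay below. The abundant loci cat, gpx4a, gpx3, gstt1a and nqo1 were on the low side. For the secreted peroxidase gpx3 APE_H3 had 13.2 FPKM and the other libraries 167 to 533. On the high side were gpx1b, blvrb, blvra, prdx2, txnipa, keap1a, sesn2, gstm.1, txnrd1, gclc, msrb3 and txndc9. Prdx2 had 541 FPKM in APE_H3 and 216 to 452 elsewhere. As given above, hepatocyte markers were low and erythroid, thrombocyte, lymphoid and connective tissue markers high in this library, and their part was not tested.

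**Figure D4:**
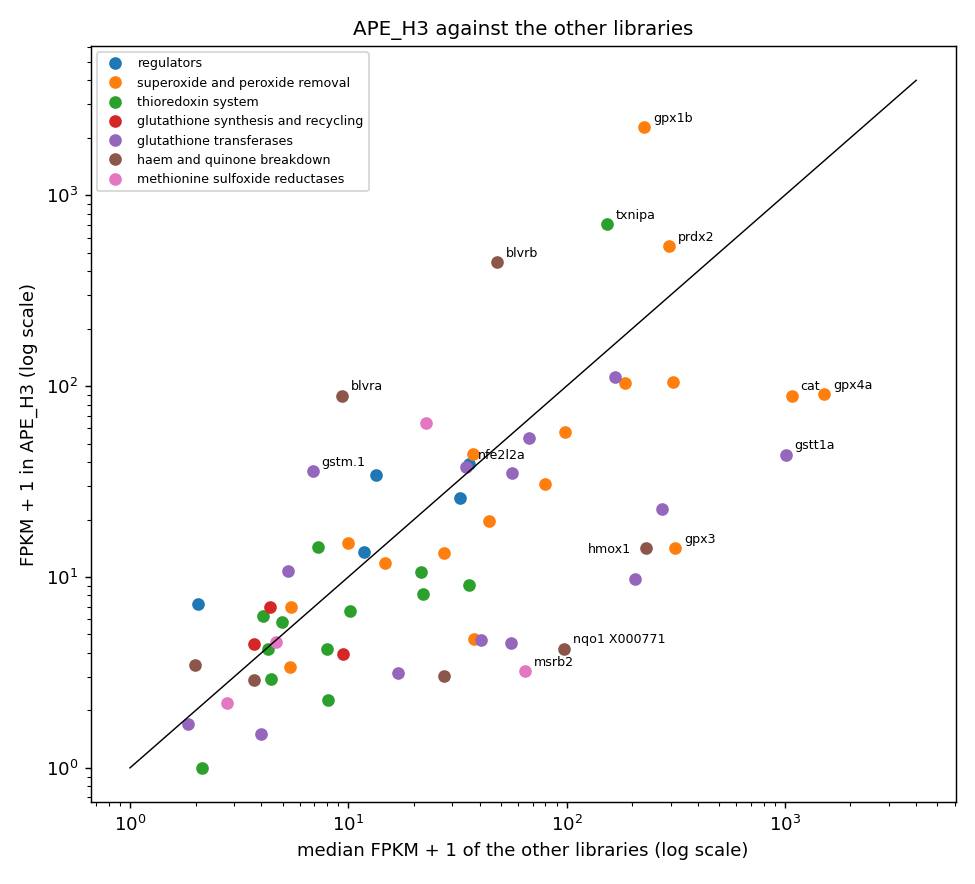
Level of each of the 63 tested loci in APE_H3 (vertical axis, FPKM + 1, log scale) against the median of the other libraries (horizontal axis, FPKM + 1, log scale), coloured by role. The line marks equal values. Gpx1b, blvrb, blvra and txnipa lie above it, cat, gpx4a, gstt1a, hmox1 and nqo1 lie far below it, and nfe2l2a is close to it.

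The pathways around these enzymes gave no call either. Of 8 lists of further genes, NADPH supply (14 tested loci), glutaredoxin and glutathione turnover (16), cysteine supply (7), other Nrf2 targets and phase 2 enzymes (14), selenoproteins and their synthesis (8), oxidant sources (11), metal binding (7) and other oxidant defence (5), none held a locus with an adjusted p under 0.05 in any comparison (limma). Among the loci named from these lists, anpep, an aminopeptidase that cleaves the cysteinyl-glycine left by glutathione breakdown, was listed at 0 in all C libraries and had 2.04, 1.54 and 1.57 FPKM in APE_A. In APE_H it was listed at 0 in APE_H1 and APE_H2 and had 3.11 FPKM in APE_H3, so the groups of APE_H and C overlapped. It reached the filter only through libraries in which it was above 0, mostly those of APE_A, and no test is drawn from it.

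The NADPH suppliers provide the electrons for both reductases. An idh2 locus (XLOC_000655), for mitochondrial isocitrate dehydrogenase, had 10.3, 2.37 and 5.78 FPKM in C, 2.32, 9.02 and 13.4 in APE_A, and 1.76, 1.24 and 0.52 in APE_H. Its APE_H libraries were below all others, as at 7.02% of all genes against C and 7.06% against APE_A. The APE_H vs. C difference of this locus was -1.59 (limma, unadjusted p = 0.038, adjusted p = 0.639). Another tested idh2 locus (XLOC_004824) went the other way, with an APE_H vs. C difference of 0.43 (adjusted p = 0.733). The median APE_H vs. C difference over the 14 tested loci of NADPH supply was 0.04. Oplah, which recycles oxoproline made in glutathione breakdown, differed by -1.06 (limma, unadjusted p = 0.035, adjusted p = 0.630) in the same comparison. It was low, with 2.22, 4.24 and 2.68 FPKM in C, 2.66, 1.41 and 1.65 in APE_A, and 2.37, 0.73 and 0.18 in APE_H. APE_H and C overlapped, and APE_H3 was the lowest library.

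Among the sources of oxidants, cybb, which encodes a subunit of the NADPH oxidase of phagocytes, had 3.35, 2 and 3.22 FPKM in C, 3.48, 2.66 and 2.40 in APE_A, and 3.86, 5.22 and 11.2 in APE_H. All APE_H libraries were above those of C and APE_A, as at 5.91% and 7.45% of all genes. The log2 difference from C was 0.92 (limma, unadjusted p = 0.040, adjusted p = 0.640). The highest value of cybb was in APE_H3. Cybb is also among the myeloid markers given above, of which 10 of 14 loci were above the median in APE_H3. Their part in this difference was not tested. Nudt1, which clears oxidized nucleotides, had 1.65, 1.45 and 1.49 FPKM in C, 1.07, 0.88 and 0.80 in APE_A, and 1.93, 2.32 and 1.90 in APE_H. Its 3 groups did not overlap. Of all genes, APE_A was below C at 6.34%, APE_H above C at 5.91% and APE_H above APE_A at 7.45%. The APE_H vs. APE_A difference of nudt1 was 0.67 on this scale, with an adjusted p of 0.330 (limma). Hamp, for the iron hormone hepcidin, had 4.25, 6.76 and 6.32 FPKM in C, 1.08, 11.5 and 6.13 in APE_A, and 121, 15.6 and 11.6 in APE_H, with an APE_H vs. C difference of 2.14 (adjusted p = 0.665). Further genes named by rule, mtr and mat1a of cysteine supply, hp, maff, ogg1, sephs1 and selm, had adjusted p-values of at least 0.468 in every comparison. Mat1a, the liver enzyme that makes S-adenosylmethionine, had 4.44 FPKM in APE_H3 and 58.1 to 151 elsewhere.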

How the data were processed

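Liver RNA of 9 libraries (3 per diet, grouped by their labels) was analysed from 1 table of FPKM values per locus. By the methods of the study, reads were aligned with TopHat 2, expressed as FPKM and compared with Cuffdiff of Cufflinks. The authors deposited FPKM values, scaled by transcript length and mapped fragments, with locus identifiers of the Cufflinks kind. The submitters' processing notes name Bowtie 0.12.2, HISAT2 2.0 and StringTie 1.3.0 and a mouse build. The reference transcripts named for the loci, however, carry identifiers of the tilapia annotation. Summed FPKM was 1226503 in APE_H3 and 1941494 to 2631532 in the other libraries. The table has no counts or depths, so no count model was run and counting error was not computed. The number of per-library columns left unused was 0.

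Values were transformed to log2(FPKM + 1), a pseudocount of 1, and the test covered genes that reached 1 FPKM in 3 or more libraries. The fit used limma 3.58.1 (R 4.3.3), a mean for each diet and an intensity trend, in place of the authors' Cuffdiff, which needs reads. P-values were adjusted by Benjamini-Hochberg over all 20575 genes. They set each difference against the spread between tank pools of the same diet, estimated over all diets together. That spread includes APE_H3 also in APE_A vs. C. Differentially expressed genes were those with an adjusted p under 0.05 whose absolute log2 difference reached 1. The fit was also run on simulated data with the same spread in every library and changes placed in APE_A alone. Those data held no library that departs at many genes together, as APE_H3 does, so they do not check that case. Python 3.11.15 was used for tables and matplotlib 3.10.9 for figures.

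The loci, pathway lists, marker lists and tests were chosen with earlier results of these data known. Named loci were the regulators and classical targets, the 5 lowest F test p-values, the 3 lowest p-values per direction and comparison, the 5 highest mean levels and, per pathway list, the 2 lowest F test p-values. Loci described beyond these were chosen after their values were seen. Some genes that this rule names are not reported here. Promoter motifs were not analysed here. Alternatives were other pseudocounts, filters, scalings, priors and sets of libraries, a replicate block, and, added after the data were seen, treating isolated zeros as missing.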

Additional observations from a re-analysis of the deposited data

How the results depend on the processing

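None of the 63 loci was called in any comparison under any alternative run. The alternatives were followed for 45 log2 differences picked for the text, not for all those of the 63 loci. Of their 844 alternative values, 836 kept their direction and side of the threshold, and the lowest adjusted p (limma) was 0.142. The 8 others changed sign on leaving out 1 library. In APE_H vs. C the differences ranged from -1.78 (without APE_H1) to 0.26 (without APE_H3) for cat, 1.61 (without APE_H2) to -0.16 (without APE_H3) for gpx1b, -0.65 (without APE_H1) to 0.22 (without APE_H3) for gsr, -2.34 (without APE_H2) to 0.19 (without APE_H3) for hmox1, -1.06 (without APE_H1) to 0.65 (without APE_H3) for hmox2a and -0.017 (without C1) to 0.22 (without C2) for nfe2l2a. In APE_A vs. C they ranged from -0.51 (without APE_A1) to 1.39 (without APE_A2) for hmox1a and from -0.096 (without C1) to 0.14 (without C2) for nfe2l2a. Differences outside the 45 also changed sign without APE_H3. In APE_H vs. C, mgst1.1 went from -0.95 to 0.38, gstt2 from -0.83 to 0.30, msrb3 from 0.46 to -0.05 and blvra from 0.81 to -0.22. Of the 63 loci, 26 were higher and 37 lower in that comparison with APE_H3, and 32 and 31 without it. Apart from what is stated in the text, the cause was not tested.

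Counts over all genes moved more. Against 20 genes in APE_A vs. C, 25 in APE_H vs. C, 28 in APE_H vs. APE_A and 38 by the F test, a pseudocount of 0.01 gave 42, 38, 53 and 68. Fitting only the groups compared gave 35 in APE_A vs. C and 57 in APE_H vs. APE_A, and isolated zeros as missing gave 12, 17 in APE_H vs. APE_A and 23 by the F test. Leaving out 1 library gave 12 (without APE_A2) to 26, 18 to 55 (without APE_H3), 5 (without APE_A2) to 59 (without APE_H3) and 16 to 69.

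Numbers of loci past an unadjusted p of 0.05 also moved. With only the groups compared, APE_A vs. C had 1 higher and 2 lower, and the other comparisons 0 in both directions. In APE_H vs. C, the filter at 5 FPKM gave 0 higher and 1 lower, quantile normalization 0 higher, no filter 2 higher and a pseudocount of 0.01 gave 1 lower. In APE_H vs. APE_A, the filter at 5 FPKM gave 1 higher and quantile normalization 0. Leaving out 1 library gave 0 to 1 higher and 0 to 2 lower in APE_A vs. C, 0 to 2 and 0 to 14 in APE_H vs. C, and 0 to 4 and 0 to 14 in APE_H vs. APE_A, with 14 without APE_H1. On leaving out 1 library the medians ranged from -0.064 to 0.083, from -0.42 to 0.010 and from -0.37 to 0.03, and quantile normalization gave 0.147 in APE_A vs. C and -0.093 in APE_H vs. C.

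The deviations of same-numbered libraries from their group means correlated at -0.0695 to 0.126, and those of differently numbered libraries at -0.137 to 0.0919. These ranges overlap, and whether the replicate numbers pair the libraries was not tested. With the replicate block, 7, 8 and 3 genes were called in APE_A vs. C, APE_H vs. C and APE_H vs. APE_A and 9 by the F test, and 1 locus was lower at an unadjusted p of 0.05 in APE_H vs. C and 1 in APE_H vs. APE_A.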
